A study of Mus musculus with 56 samples.

Results

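The 10 genes described here mark endocrine or tuft cells of the gut, and they were followed through single tumor cells of the mouse colon. They are Fev, Isl1, Neurog3, Neurod1, Chga and Chgb of the endocrine lineage and Avil, Pou2f3, Trpm5 and Dclk1 of the tuft lineage. They are 10 of the 24410 genes in the table, and all 10 were matched by Ensembl identifier. They were chosen by their measured levels in these same cells, Fev, Isl1 and Avil because they were seen in most cells and the rest because they were rare, so the levels and counts of cells given here describe the members and test nothing. "Seen" means a level of 1 TPM or more, where TPM is the RNA-seq level of a gene scaled for its length and for the total of the cell. The limit is an arbitrary one, and the counts at other limits are given beside it.

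The cells came from 1 male ApcMin/+ mouse, a strain that carries a truncating Apc allele in every cell and forms intestinal adenomas. It drank 2% dextran sulfate sodium (DSS), which inflames the colon, for 5 days from the age of 10 weeks and was 12 weeks old at collection. From it 3 tumors were pooled, live Cd31-Cd45-Epcam+Cd24+ cells were sorted singly, and only cells whose cDNA gave an Lgr5 band after 32 PCR cycles were sequenced by Bead-seq. There is 1 group, with no normal colon, no unsorted cells and no second mouse, so no value could be compared between conditions. Cd24 is itself high on Paneth-like, endocrine and tuft cells in the normal gut, so the gate and the Lgr5 PCR choose cells before any gene is measured.

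The 56 wells were counted as 50 cells: 6 pairs of libraries had profiles with r of 0.957 to 0.992 and were averaged as 1 cell each. The next closest pair had r of 0.782. That a pair is 1 cell is taken from r alone, since the labels list 56 separate samples, and was not tested. Each of the 6 pairs holds a library with the i7 index N709. The cells had 1316 to 7234 genes seen, with a median of 5902.5. One transcript, Gm10925, took 1.12% to 85.1% of a cell's TPM, with a median of 8.82%. Read depth is unknown, because TPM keeps none. Of the 11 epithelial markers listed, 7 were seen in all 50 cells, and a cell held 7 to 11 of them.

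Enteroendocrine cells are the hormone-secreting cells of the gut epithelium. NEUROG3 starts the lineage in a progenitor, NEUROD1, FEV (also called PET1) and ISL1 act later in it, and the chromogranins CHGA and CHGB pack the secretory granules of the mature cell. Tuft cells are chemosensory cells that need the factor POU2F3, depolarise through the channel TRPM5, carry the kinase-like protein DCLK1 and build their brush with actin-binding proteins such as advillin (AVIL).

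The results turn on Fev, Isl1 and Avil, and the sequences before their starts differ in kind. Shown are the 250 bases before the RefSeq start of Fev (GRCm38.p6, chr1:74885409-74885658, minus strand) and of Avil (GRCm38.p6, chr10:127000459-127000708, plus strand), each 5′ to 3′ along its gene. Capitals mark the POU2F octamer core, ATGCAA or its reverse complement.
Fev: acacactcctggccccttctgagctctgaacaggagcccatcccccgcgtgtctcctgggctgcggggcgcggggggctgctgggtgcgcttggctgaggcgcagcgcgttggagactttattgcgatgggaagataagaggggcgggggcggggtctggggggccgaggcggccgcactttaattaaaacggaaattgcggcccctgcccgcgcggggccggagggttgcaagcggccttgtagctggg
Avil: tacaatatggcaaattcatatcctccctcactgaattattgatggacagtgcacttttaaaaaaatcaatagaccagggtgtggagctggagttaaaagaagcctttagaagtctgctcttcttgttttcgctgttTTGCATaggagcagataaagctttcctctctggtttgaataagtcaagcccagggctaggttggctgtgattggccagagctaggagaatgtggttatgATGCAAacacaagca
The Fev stretch has 22 CG pairs and the Avil stretch 1. That of Isl1 has 33, and the median over 32851 promoters was 6. The 2 octamer cores of Avil lie 114 and 15 bases before the start, at their first base.

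For these promoters 5 motifs were searched on both strands from 250 bases before to 50 after the start. They were the E-box CAGATG bound by NEUROG3 and NEUROD1, the TCF/LEF core CTTTGA, the POU2F octamer core ATGCAA, the ETS core CCGGAA and the LIM homeodomain core TAATNG, where N is any base. No match in a member promoter overlapped another. Of the 10 members 9 had an entry, with 10 promoters in all. The octamer core was in 10.7% of all promoters, and 0.944% held it at 2 places or more, as Avil does. The E-box, in 17.2% of all promoters, and the LIM core, in 20.6%, were in none of the 10 member promoters. Among the other members the octamer core was also in the promoter of Neurog3, the TCF/LEF core in 1 of 2 promoters of Dclk1, and the ETS core in Neurog3 and in the other promoter of Dclk1. The TCF/LEF core (16% of all) and the ETS core (14.9%) were absent from these windows of Fev, Isl1 and Avil. These are letter matches and say nothing of binding.

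Fev (ENSMUSG00000055197, chromosome 1, 74881509 to 74885419, minus strand), an ETS-family factor of endocrine progenitors and of serotonergic neurons, was seen in all 50 cells (exact Clopper-Pearson 95% interval 92.9% to 100%). Its lowest level was 12.29 TPM, its median 36.26 and its highest 102.23. The second highest cell was at 60.66, and the middle of the distribution ran from 29.96 to 42.77 TPM between the quartiles, a 1.43-fold span. No cell was without it, and all 50 were above 10 TPM. Over all genes of the table, 1.18% were seen in every cell.

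Isl1 (ENSMUSG00000042258, chromosome 13, 116298281 to 116309689, minus strand), a LIM homeodomain factor of hormone cells, was seen in 30 of 50 cells (60%, interval 45.2% to 73.6%), and 18.2% of all genes were seen in at least as many. Its level was 0 in the lowest cell, 9.44 TPM at the median and 101.56 in the highest. It was listed at 0 in 14 cells, lay between 0 and 1 TPM in 6 and reached 10 TPM in 24. Where seen, its median was 23.9 TPM, so the cells split into a group at or near 0 and a group mostly above 10.

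Avil (ENSMUSG00000025432, chromosome 10, 127000709 to 127020994, plus strand), which encodes advillin, was seen in 46 of 50 cells (92%, interval 80.8% to 97.8%). Over all genes, 5.94% were seen in at least as many. Its level was 0 in 3 cells, 45.09 TPM at the median and 131.61 in the highest cell, and 42 cells reached 10 TPM. The medians of Avil and Fev, on the TPM scale, lie within the spread over cells of either gene, whereas the median of Isl1 lies below the lowest level of Fev.

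The other members were rare or at the floor. Neurog3, Neurod1, Chga, Chgb and Trpm5 were listed at 0 in all 50 cells, and 0 of 50 has an upper Clopper-Pearson 95% limit of 7.11%. That limit is on cells listed at 1 TPM or more among cells of this mouse, not on cells that express the gene, since a 0 at unknown depth does not show absence. Not being seen in any cell was common: 42.5% of all genes never reached 1 TPM. So the factor that starts the endocrine lineage, a later factor of it, both granule proteins and the tuft cell channel were not detected in cells where Fev was seen throughout. A listed 0 may also be a failed estimate, since some widely used genes were at 0 in single cells.

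Dclk1 was seen in 3 cells, at 14.68, 8.63 and 2.66 TPM, and was above 0 in 15. All 3 cells also held Avil, at 77.72, 81.66 and 47.89 TPM, and Isl1 was at 0, 23.12 and 68.31 TPM in the same order. The cell with the highest Dclk1 was also the cell with the highest Fev, 102.23 TPM. Of the 25 tuft genes listed, the 3 cells held 2, 3 and 2, namely Avil and Dclk1 with Sh2d6 added in the second.

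Pou2f3, the factor that tuft cells need, differed from both patterns. It was above 0 in 49 cells and reached 1 TPM in none: its lowest level was 0, its median 0.27 and its highest 0.59 TPM. Only 14 of the 3834 genes whose highest level lay between 0 and 1 TPM were above 0 in 49 cells or more. Their gene spans ran from 86.4 to 4435 kb with a median of 710 kb, beside a median of 37.7 kb for the 3816 such genes with a span. Pou2f3 had the shortest span of the 14, and Lrp1b, a long gene known from neurons, was among them. What reads lie behind values this low was not tested.

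**Figure D1:**
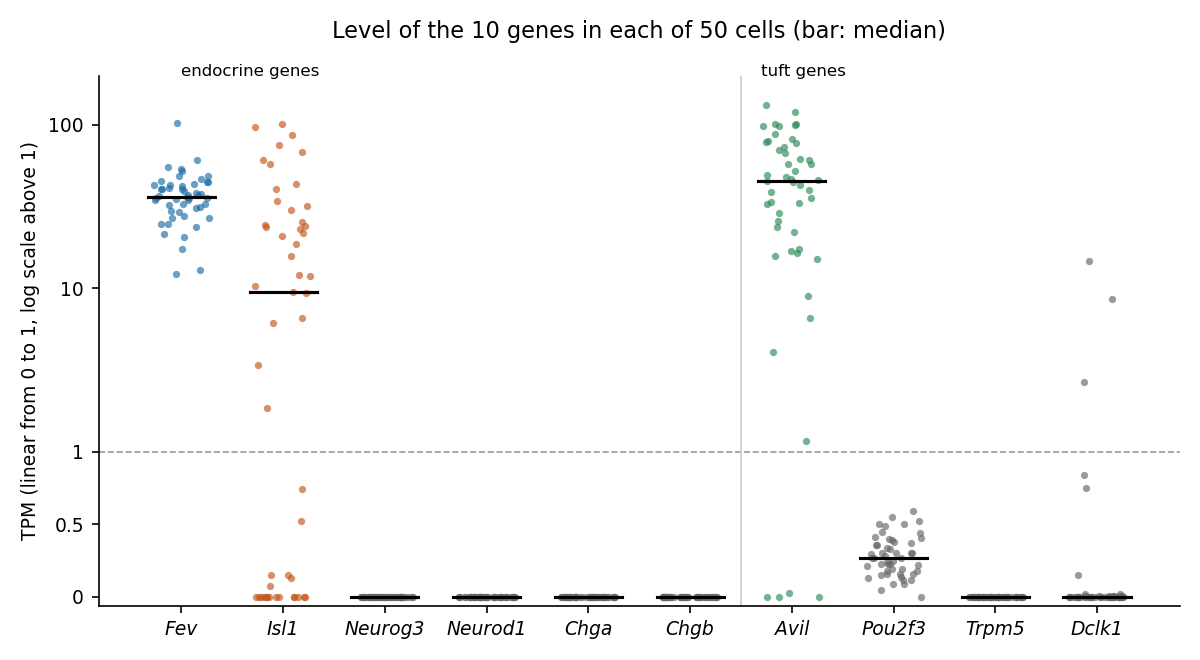
Level of each of the 10 genes (TPM, linear up to 1 and logarithmic above) with 1 point per cell and a bar at the median of 50 cells; the dashed line is 1 TPM. Fev lies between 12.29 and 102.23 TPM in every cell, Isl1 splits between 0 and higher levels, Avil is at 0 in 3 cells, Pou2f3 stays between 0 and 0.59 TPM, and 5 genes lie at 0.

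Fev, Isl1 and Avil were seen together in 28 cells, and all 3 reached 10 TPM in 23. Isl1 was seen without Avil in 2 cells, Avil without Isl1 in 18, and Fev alone of the 3 in 2. Since Fev was seen everywhere and Avil nearly so, these overlaps follow the single counts. Spearman's rho over the 50 cells was 0.07 for Fev and Isl1, 0.16 for Fev and Avil and 0.14 for Isl1 and Avil. These are descriptions with no p, because the cells share 1 mouse, pooled tumors and sets of library indexes. In the 32 cells with i7 indexes N704 to N707 and the 18 with N708 to N710 the rho of Fev and Avil was 0.10 and 0.30, and in the 26 cells with i5 indexes N502 to N505 and the 27 with N506 to N517 it was -0.07 and 0.32. A cell from a pair can enter both i5 sets.

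**Figure D2:**
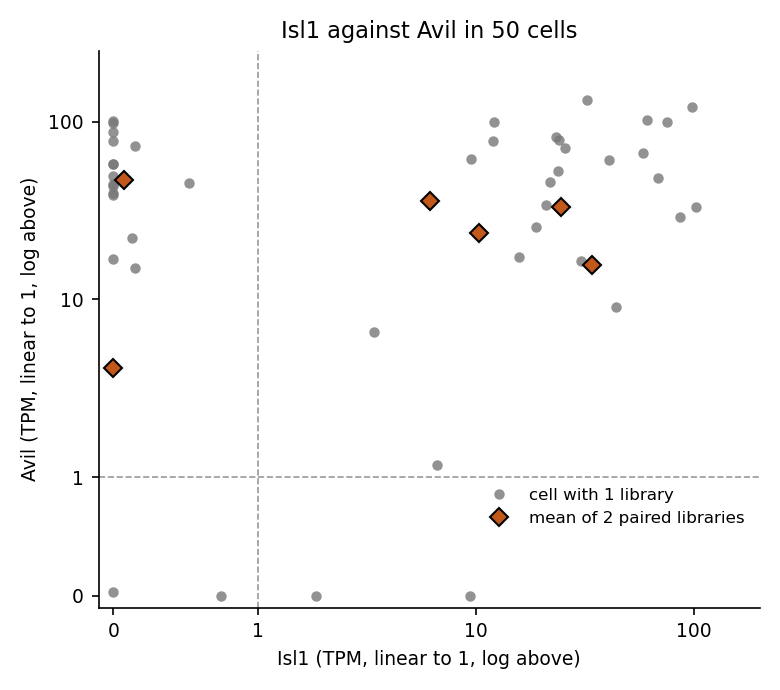
Isl1 against Avil in 50 cells (TPM, linear up to 1 and logarithmic above). Circles are cells with 1 library, diamonds the means of the 6 library pairs, and dashed lines mark 1 TPM: 28 cells lie above both lines, 18 above that of Avil only, 2 above that of Isl1 only and 2 below both.

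The 6 library pairs give a level for the same genes in 2 libraries of like profile. For Fev the paired levels were 35.34 and 36.41, 34.37 and 36.85, 50.44 and 43.23, 36.31 and 35.68, 64.99 and 45.06, and 45.5 and 29.57 TPM. The median difference within a pair was 0.16 on the log2(TPM + 1) scale, beside 0.40 between any 2 cells, and it was below the latter in 4 of 6 pairs. For Isl1 the difference was 0.36 within pairs and 2.73 between cells, and for Avil 0.12 and 1.23, with 6 of 6 pairs below the value between cells for each. Each of the 3 genes was seen in both libraries of a pair or in neither, in 6 of 6 pairs. Since the pairs were picked for profiles that correlate above 0.9, small differences within them follow in part from that choice.

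Levels by index also differed more for Isl1 and Avil. Median Fev ran from 29.4 to 43.4 TPM over the i5 indexes and from 29.8 to 41.7 over the i7 indexes. Median Isl1 ran from 0 to 23.8 and from 0.14 to 38.4, and it was seen in 1 of the 7 libraries with index N502. Median Avil ran from 17.4 to 78.2 and from 23.3 to 67.7. Whether the index has a part in these levels was not tested.

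The even level of Fev set it apart from Isl1 and Avil. Its coefficient of variation (CV, the SD over the mean) was 0.372, and of the 1246 genes whose median lay within 2-fold of its own, 24 (1.93%) had a lower one, with a median CV of 0.935. Avil had a CV of 0.717, with 24.1% of 1124 genes of like level below it, and Isl1 a CV of 1.37, with 81.7% of 1598 below it. Isl1 therefore varied more than most genes of its level, and Fev far less than most. Fev was chosen because it was seen in most cells, and 3.37% of its 1246 genes of like level were seen in as many. Its low CV follows in part from that choice and is a description.

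A closer look at genes as even as Fev was chosen after seeing the data. Of the 4678 genes with a median of 1 to 100 TPM, 119 (2.54%) had a CV below 0.5, and Fev was the only member among them. The 119 include genes of wide use, such as Psmb1 of the proteasome and Ywhae of the 14-3-3 proteins. They also include genes known for other tissues: Gabrb1, a neuronal GABA receptor subunit (median 7.7 TPM, CV 0.264), Crybb2, a lens crystallin (73.6 TPM, CV 0.327), Boll of male germ cells (2.72 TPM, CV 0.339), and the vomeronasal receptor pseudogene Vmn2r-ps54 (9.28 TPM, CV 0.462). A low CV was therefore also seen for genes whose known tissue is not the colon, and what part such signal has in the Fev values was not tested. Fev differed from most of the 119 in the cells it was seen in: 25 of them were seen in all 50 cells. This difference lay largely in 1 cell, that with the fewest genes: 89 were below 1 TPM in it, where Fev was at 60.66 TPM. Being seen in most cells is how Fev was chosen, so this difference is a description only. The lowest levels of Crybb2, Boll and Gabrb1, at 0, 0.06 and 0.07 TPM, were their levels in that same cell. These 3 genes were seen in 49, 48 and 49 cells. Vmn2r-ps54 was seen in all 50 cells, at 1.45 TPM or more. As a group the even genes did not follow Fev: the median rho with Fev was -0.09 over the 118 others, beside -0.05 over the remaining genes in that range of level. Among the 118, the water and glycerol channel Aqp9 alone had a rho of 0.4 or more (0.60).

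**Figure D3:**
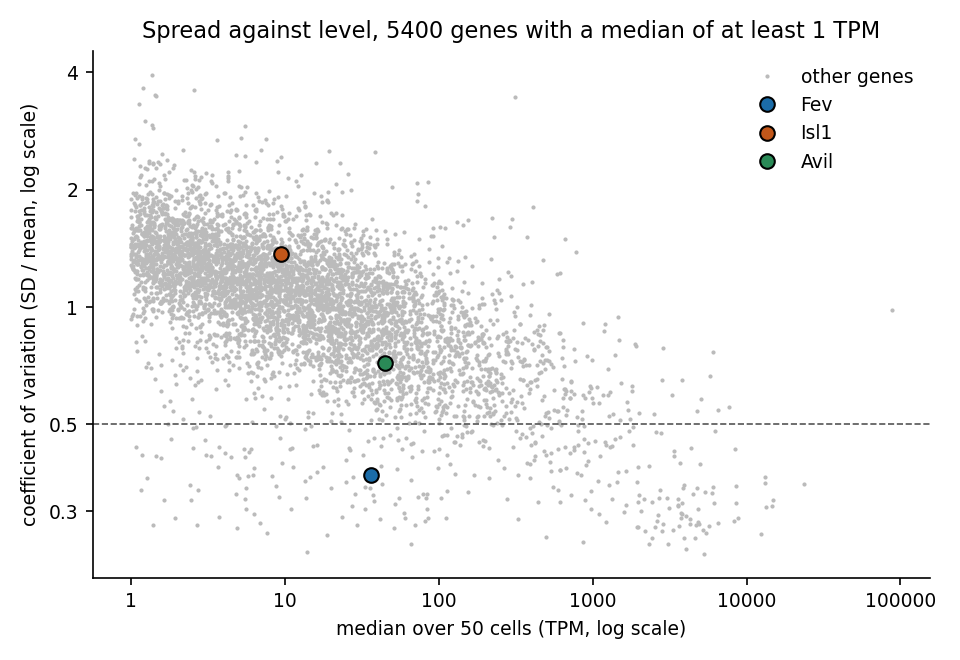
Coefficient of variation over 50 cells against the median level (TPM), both on log scales, for the 5400 genes with a median of at least 1 TPM; the dashed line is a CV of 0.5. Fev (CV 0.372) lies in a thin band of even genes below the main cloud, and Avil (0.717) and Isl1 (1.37) lie within the cloud.

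Genes that varied with Fev were sought among the 9165 other genes seen in at least 20% of cells, at a rho of 0.4 or more in size. There were 47 genes above (0.513%) and 65 below (0.709%). With every gene taken in turn as the reference, the median count at this limit was 72 (quartiles 50 and 111), so 112 genes is above the middle of that range. The count depends on how likeness is measured: by Pearson's r of log2(TPM + 1) it was 67, and without the libraries of i5 index N517 it was 227.

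What stood out was a small set that followed Fev closely. Dhdh, a dihydrodiol dehydrogenase, had a rho of 0.75 with Fev, and 94.1% of all reference genes had a lower best partner. Svep1, an extracellular matrix protein, followed at 0.69, Atp1b4 of the Na,K-ATPase beta subunit family at 0.68, the junction protein Jam3 at 0.67, the Wnt ligand Wnt8b at 0.66, the photoreceptor calcium sensor Guca1a at 0.66, the transcript 2310065F04Rik at 0.65 and the BEN-domain protein Bend4 at 0.62. Each of the 8 kept its sign in both i7 and both i5 sets of cells, by the rule that chose them. They were also close to each other, with rho of 0.52 to 0.96 in the 28 pairs and a median of 0.81. Since all 8 were picked for a high rho with Fev, this follows in part from that choice. None of the 8 belongs to the endocrine, granule, hormone, serotonin or tuft lists. Among the genes of all lists, the epithelial keratin Krt18 alone reached a rho of 0.4 with Fev, at 0.44. The 10 epithelial genes tested had a median rho of -0.03 with Fev.

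Dhdh lay at 3.61 TPM in the lowest cell, 14.5 at the median and 126 in the highest, and Svep1 at 0.88, 4.08 and 42.8 TPM. The cell with the highest Fev was also the cell with the highest Dhdh. The 8 genes moved with Gm10925 as well, at rho of 0.47 to 0.70, and Fev did so at 0.41. In the cell with the fewest genes seen, 1316, Gm10925 held 85.1% of TPM. There Fev was at 60.66 TPM, its second highest level, while Epcam was at 14.4, Cd24a at 1.96, Isl1 at 1.84 and Avil at 0. Dhdh ranked 2nd of the 50 cells in it, Wnt8b and Bend4 2nd, Svep1 and Atp1b4 3rd, Jam3 4th, Guca1a 12th and 2310065F04Rik 27th. So Fev and 6 of the 8 genes were near their highest levels in it, and 2310065F04Rik, at 1.47 TPM, was below its median of 1.87.

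The set did not rest on that cell. Without it the rho of Fev and Dhdh was 0.73, without the cell of highest Fev it was also 0.73, and given the Gm10925 share (a partial rho, added after seeing the data) it was 0.68. Given the Gm10925 share, the 8 genes stayed between 0.50 and 0.68. Once TPM was rescaled without Gm10925 and ribosomal protein genes, they lay between 0.72 and 0.83. That rescaling keeps the cell and multiplies all genes of a cell by 1 factor. A shared factor can by itself raise the rho between them, so the rescaled range is no check of the set. What else the cells share that could move Fev with this set was not tested.

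**Figure D4:**
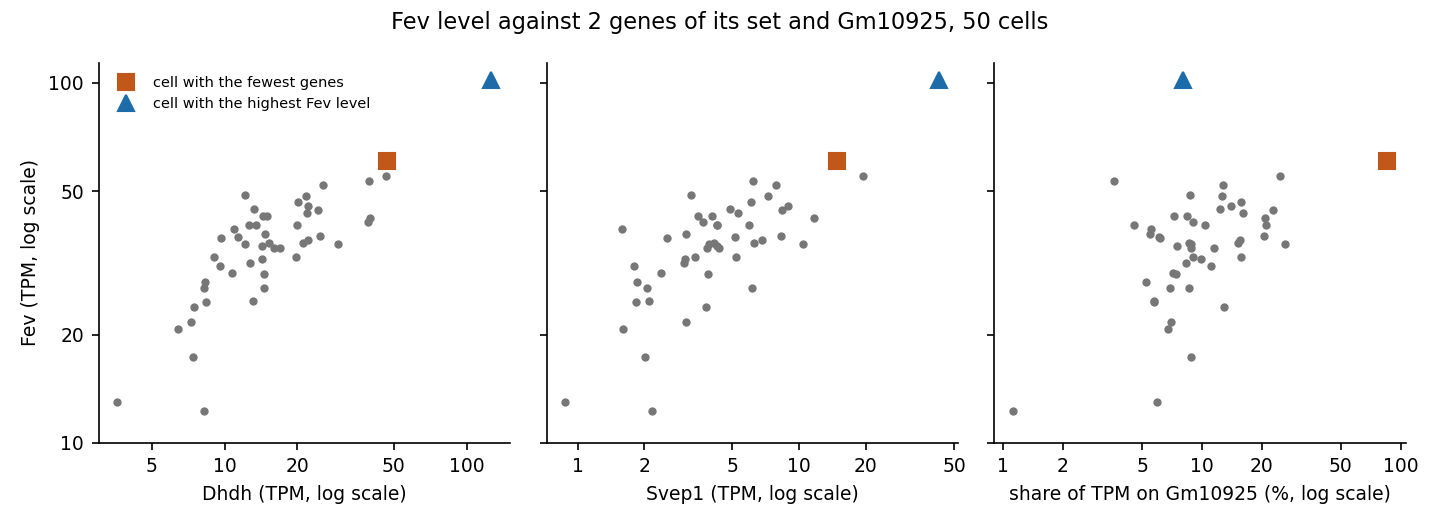
Fev level (TPM) against Dhdh, Svep1 and the share of TPM on Gm10925 in 50 cells, all on log scales. The square is the cell with the fewest genes and the triangle the cell with the highest Fev level; Fev rises along Dhdh (rho 0.75) and Svep1 (0.69) and less closely along Gm10925 (0.41).

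Genes of the most negative rho with Fev, by the same sign rule, were Ppie, a peptidyl-prolyl isomerase (-0.52), and Uqcr10, a subunit of respiratory complex III (-0.50). Next were 4930481A15Rik, the Notch ligand Jag1, Pdss2, Naa25, the copper chaperone Cox17 and Tbc1d7 at -0.48 to -0.47. Given the Gm10925 share, 5 of these 8 stayed at -0.4 or less, the weakest being -0.34. By Pearson's r of log2(TPM + 1) 5 of 8 did, the weakest being -0.25. Cell cycle genes also leaned to a negative rho. A positive rho with Fev was found for 1 of 19 S phase genes and 1 of 18 G2/M genes, beside 37.1% of all genes tested. The medians were -0.15 and -0.19 beside -0.05 over all genes, and no listed cell cycle gene reached 0.4 in size. This lean was not particular to Fev. With Avil, 4 of 19 and 3 of 18 were positive, beside 62.15% of all genes. With Isl1, 8 of 19 and 10 of 18 were, beside 67.66%. How far the listed genes vary together was not tested, so these counts are a description only. Fev itself had a rho of -0.22 with the number of genes seen and -0.26 with Cd24a, a gene of the sort gate.

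Isl1 and Avil had few close partners. Isl1 had 56 genes at rho of 0.4 or more (0.611%) and 1 at -0.4 or less (0.0109%), and Avil 41 (0.447%) and 4 (0.0436%). Both totals, 57 and 45, are below the median of 72 over all reference genes, and the best partners are weaker than for most genes: 29.2% of reference genes had a lower best rho than Isl1 and 24% a lower one than Avil. With counts below the middle of all reference genes these weak relations are no finding, and the names, that of Lmo2 included, are given only as a description. By Pearson's r of log2(TPM + 1) the count for Avil was 408.

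The genes most like Isl1 were Smarce1, a subunit of the BAF chromatin remodeller (0.55), Cops4 of the COP9 signalosome (0.51) and Asb6 (0.51), then Mir8097, the importin Kpna4, Il11ra1, the histone chaperone Asf1a and Cpm at 0.50 to 0.48. The least like were the DNA repair gene Ddb2 (-0.45), Smarcal1, Hap1, Ipmk, Srm, Dus2, Nol6 and Col4a3bp. The genes most like Avil were Wars, a tryptophanyl-tRNA synthetase (0.54), Prr15 (0.53) and Rpf1 (0.52), then Rbms1, Arf5, Zer1, the G protein subunit Gnb1 and 4930554G24Rik at 0.49 to 0.46. The least like were the ephrin Efna4 (-0.44), Ndc1, Mospd1, Osbpl5, Foxp1, Ogfod2, Ighmbp2 and Tank. Neither set held together as that of Fev did: the median rho among the 8 upper genes was 0.30 for Isl1 and 0.27 for Avil. These upper genes were picked at a lower rho than those of Fev, so the lower medians follow in part from the choice.

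One listed gene reached 0.4 with both, within the range of weak relations just given. Lmo2, a LIM-only adaptor that joins LIM-domain complexes, was seen in 35 cells with a median of 26.2 TPM and had a rho of 0.47 with Isl1 and 0.44 with Avil, but 0.02 with Fev. The other LIM partners seen in many cells, Lmo4 in 46 and Ldb1 in 42, were at -0.13 and 0.12 with Isl1. Of the 21 genes of the LIM list, 14 were never seen, and Isl1 was the only LIM homeodomain factor of it that was.

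The wider endocrine lists were seen in few cells. Of 16 endocrine factors listed, 9 were never seen, beside 42.5% over all genes, and 6 of these 9 were at 0 in all cells. The 9 include the members Neurog3 and Neurod1, which were chosen as rare. Hhex, a factor of somatostatin-producing cells, was seen in 12 cells, Rfx6 in 3, Pax6 in 2 and Pax4 in 1, so a cell held 1 to 5 of the 16 with a median of 2, which Fev and Isl1 account for in most. Rfx6 was above 0 in 47 cells with a median of 0.14 TPM and a highest level of 14.2 TPM. Of 20 granule and secretion genes, 14 were never seen, among them the members Chga and Chgb, also chosen as rare. Those seen most were the vesicle SNARE Vamp2 in 24 cells, the complexin Cplx2 in 16 and Rab3a in 10, and a cell held 0 to 3.

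Hormones were seen in few cells. Of 11 hormone genes 5 were listed at 0 throughout, a share near the 42.5% of all genes never seen, among them Gcg, Gip and Sst. Tac1, which encodes substance P, was seen in 13 cells with a highest level of 140 TPM, secretin (Sct) in 5 with 256 TPM and Pyy in 2 with 14.7 TPM. Serotonin is made by the enterochromaffin class of endocrine cells, in which Fev acts. Tph1, whose enzyme limits that synthesis, was seen in 1 cell at 1.33 TPM, whereas Ddc was seen in 20 cells, the vesicular transporter Slc18a1 in 22, and the cofactor genes Gch1, Pts and Qdpr in 30, 41 and 41. The rho of Fev was -0.14 with Ddc, -0.03 with Slc18a1, -0.22 with Pts and -0.28 with Qdpr. Of the 6 serotonin genes tested 1 had a positive rho with Fev, and their median was -0.10, beside -0.05 over all genes. Pts had a rho of 0.31 with Isl1 and 0.36 with Avil.

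**Figure D5:**
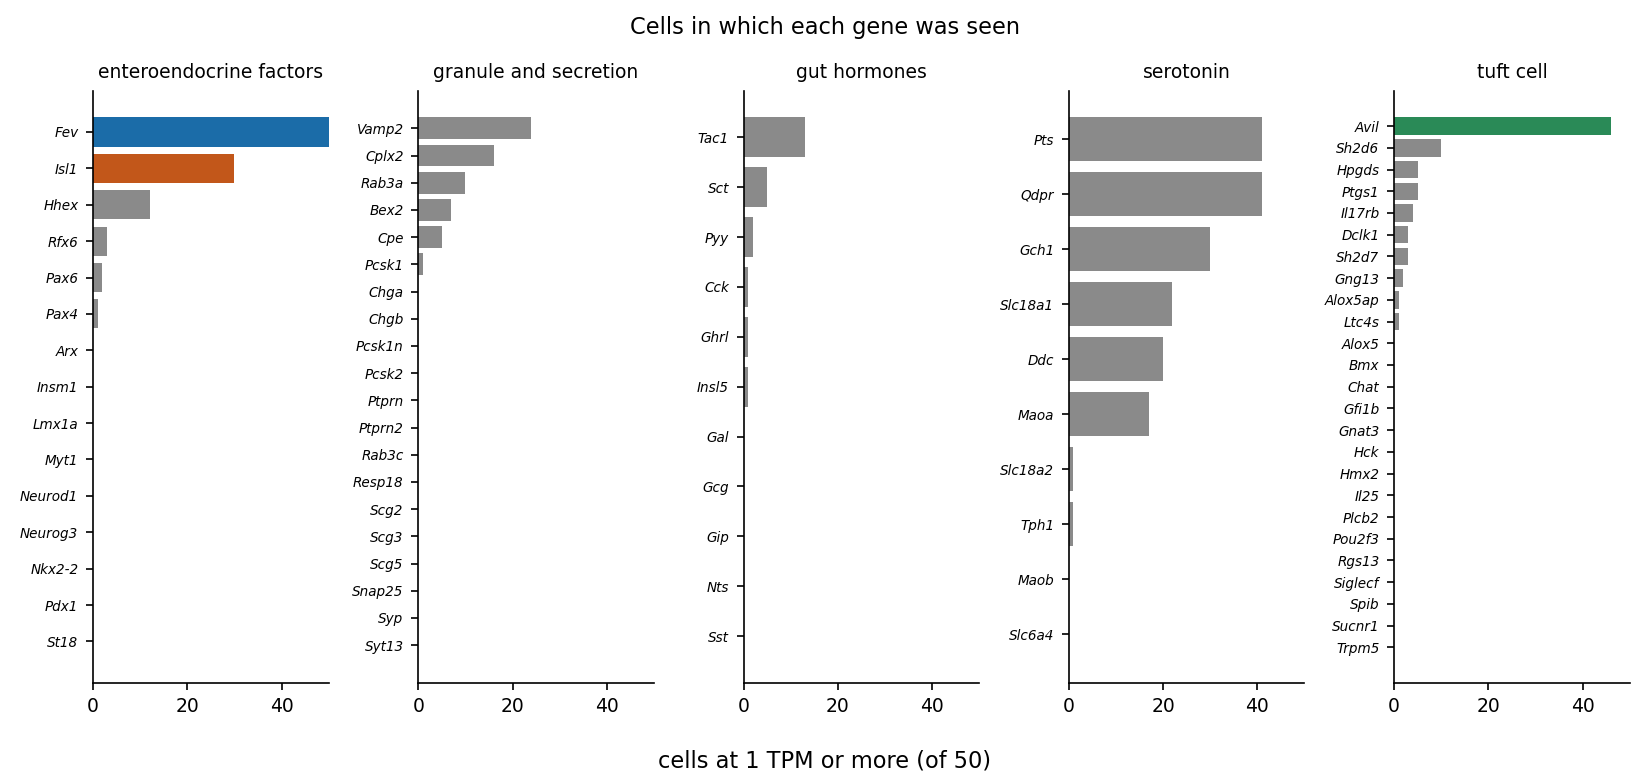
Number of cells of 50 with each plotted gene at 1 TPM or more, for the lists of endocrine factors, granule and secretion genes, gut hormones, serotonin genes and tuft cell genes; Fev, Isl1 and Avil are coloured. Fev (50), Isl1 (30) and Avil (46) stand above the other genes of their lists, of which the next are Hhex (12) and Sh2d6 (10).

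Apart from Avil, the tuft genes were seen in few cells. Of 25 tuft genes, 15 were never seen, beside the 42.5% over all genes. The 15 include the members Pou2f3 and Trpm5, which were chosen as rare. After Avil came the adaptor Sh2d6 in 10 cells, with a highest level of 192 TPM, the prostaglandin enzymes Ptgs1 and Hpgds in 5 each, the interleukin receptor Il17rb in 4, and Dclk1 and Sh2d7 in 3 each. A cell held 0 to 3 of the 25 with a median of 1. Gfi1b, Plcb2 and Gnat3 were never seen, and Trpm5 was at 0.

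Avil also belongs to the villin family of actin-severing and actin-bundling proteins, and there it had company. Vil1, the villin of the enterocyte brush border, was seen in 48 cells with a median of 47.6 TPM, beside 45.09 for Avil. Flii was seen in 34 cells, Vill in 33, Gsn in 27, Capg in 25 and Svil in 6, and Scin was never seen. The rho of Avil with Vil1 was 0.02, and it was -0.05 to 0.10 with the others that were tested. With Epcam it was 0.25 by rank and 0.55 by Pearson's r of log2(TPM + 1). The cell lowest in Epcam, at 14.35 TPM, had Avil at 0 and 1316 genes seen. The next lowest, at 30.26 TPM, had Avil at 0.03 TPM and 3935 genes seen. How far the 0.55 rests on these cells was not tested.

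Fev likewise sits among ETS factors that the epithelium uses broadly. Elf3 was seen in 49 cells with a median of 723 TPM, Ets2 in 50 with 369, Ehf in 46 with 16.9 and Etv5 in 40 with 14.7. The median of Fev, 36.26 TPM, lay between those of Ets2 and Ehf. Its rho was -0.21 with Elf3, 0.09 with Ets2 and 0.12 with Ehf. The vascular ETS genes Fli1 and Erg, close relatives of Fev, were never seen.

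Markers of other cells were seen unevenly. Of 11 enteric neuron and glia genes 8 were never seen, and a cell held at most 1. Of 8 immune genes 5 were never seen, among them Ptprc, which encodes the Cd45 of the gate, but Csf1r was seen in 21 cells, up to 18.4 TPM, and Cd68 in 10, up to 243 TPM. Of 6 endothelial genes 4 were never seen, with Pecam1, the Cd31 of the gate, below 1 TPM throughout. Of 6 fibroblast genes 4 were never seen, and Pdgfra was seen in 25 cells, up to 4.47 TPM. Among Paneth and deep crypt secretory genes, Mmp7 was seen in 48 cells, Lyz1 in 24 and Defa24 in 22. These shares of genes never seen stand beside the 42.5% over all genes, and the part of such cells or their RNA in the levels of the members was not tested. Fev also marks serotonergic neurons and Isl1 and Avil sensory neurons. Summed neuron and glia signal had a median of 0.175 TPM and a highest value of 12.7 TPM.

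Neighbouring genes bear on Avil. Its gene overlaps Tsfm, a mitochondrial translation factor on the opposite strand, over 9423 bases, and exons of the 2 genes share 165 bases (GRCm38, chr10:127011699-127011863), which are coding in both and make up 4.86% of the exon bases of Avil. They are shown along the Avil strand, because without strand information a read wholly within these bases matches both genes. How such reads were divided between the 2 genes was not tested.
Avil and Tsfm: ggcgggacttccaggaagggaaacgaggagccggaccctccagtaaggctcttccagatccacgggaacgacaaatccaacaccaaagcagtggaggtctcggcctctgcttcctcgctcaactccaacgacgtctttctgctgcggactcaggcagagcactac
Tsfm was seen in 40 cells with a median of 27.3 TPM, and its rho with Avil was 0.06. Ctdsp2 ends 734 bases before Avil on the same strand, was seen in 45 cells and had a rho of 0.01 with Avil. Fev overlaps no gene. Its nearest neighbour, Gm16582, lies 1556 bases away on the opposite strand and has no level in these data. Cryba2, which lies 4515 bases away, was never seen. Isl1 has no neighbour within 10000 bases. Neurog3 overlaps Fam241b, seen in 24 cells, and Trpm5 overlaps Tssc4, seen in 41, both on the opposite strand, while Neurog3 and Trpm5 stayed at 0.

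By rank, Prox1 and the sort and screen genes that were measured here had a rho of -0.26 to 0.25 with Fev, Isl1 and Avil, the ends being Cd24a with Fev and Epcam with Avil. The rho of Prox1, the homeobox factor that names the study's question, was 0.16 with Fev, 0.06 with Isl1 and 0.17 with Avil. That of Lgr5, the stem cell receptor used to screen the cDNA, was 0.11, 0.11 and 0.08 in the same order.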

How the data were processed

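Single-cell polyA RNA libraries were sequenced on an Illumina instrument. Per the submitters' processing notes, the authors used bcl2fastq 1.8.4, Bowtie2 2.2.9 and RSEM 1.2.31 with GRCm38.p4 and deposited TPM values, an estimated level per gene that is scaled for gene length and for the library's total. No source used here names the annotation release or says whether strand was used. TPM hides read depth, and a few abundant transcripts lower all other values of a cell.

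All values here were computed from the deposited TPM with Python 3.11.15, numpy 2.4.6, pandas 2.3.3 and SciPy 1.17.1, and drawn with matplotlib 3.10.9. Symbols were found for 24235 of 24410 identifiers. Libraries with Pearson's r above 0.9 between their log2(TPM + 1) profiles were averaged as 1 cell. Likeness was Spearman's rho of TPM across cells over the genes that reached 1 TPM in 20% of cells, a calculation tested on simulated data. With 1 mouse and 1 group no test was made.

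Named genes are the members, the 8 highest and 8 lowest by rho with Fev, Isl1 and Avil whose sign held in both i7 and both i5 index sets, the listed genes seen in most cells or with the largest rho, overlapping or neighbouring genes, and the sort genes. The members and lists were chosen with earlier results of these data known. Aqp9 and the genes of even level were named after their values were seen. Some listed genes are not reported here. Gene positions are from GENCODE vM21 (GRCm38) and promoters from RefSeq (GRCm38.p6). The alternatives were other detection limits, scalings, measures of likeness and filters, and leaving out cells or indexes.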

Additional observations from a re-analysis of the deposited data

How the results depend on the processing

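Over 163 alternatives, 140 values moved little and 23 moved further (a share outside the 95% interval, a rho by 0.1 or more, or a count by over 1.5 times). The counts of cells with Fev, Isl1 and Avil stayed within their intervals under every alternative run. The genes at a rho of 0.4 or more in size with Fev numbered 112, but 67 by Pearson's r of log2(TPM + 1) and 175 in the 44 cells with 1 library, and 130 to 227 with an i5 index left out. With Isl1 they numbered 57, but 36 among genes seen in 50% of cells, and 67 to 133 with an index left out. With Avil they numbered 45, but 408 by Pearson's r, 70 in cells with 1 library and 59 to 94 with an index left out. The cause was not tested, except that leaving out an index leaves fewer cells. The rho of Isl1 and Avil was 0.24 by Pearson's r with a pseudocount of 10 and 0.014 to 0.24 with an index left out. Pou2f3 and Dclk1 were above 0 TPM in 49 and 15 cells. The partial rho given Gm10925, the cells with 1 library and the cells without the highest Fev were chosen after seeing the data. No paired analysis was possible because there is 1 group and no test. Depth, unknown here, limits what a listed 0 means.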
